A study of Drosophila melanogaster with 2 samples.

Results

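The oligosaccharyl transferase is the enzyme complex of the endoplasmic reticulum (ER) membrane that moves a preassembled sugar chain from the lipid dolichol onto asparagine residues of proteins as they enter the ER. The 6 genes described here were chosen by name from the fly annotation, out of 13968 protein-coding genes. Stt3A and Stt3B encode alternative catalytic subunits, and Ost48, OstDelta, Ostgamma and Dad1 encode other subunits. The data are chromatin immunoprecipitation with sequencing of whole Drosophila melanogaster embryos of the strain Atf6-GFP, aged 0 to 24 h, which carried an insertion targeting Atf6 that encodes a fusion to enhanced green fluorescent protein. An antibody against the fluorescent protein was used. There were 2 biological replicates of this 1 group and no other genotype, treatment or age, so conditions could not be compared. The promoter that drives the fusion gene is not stated in the labels. No control library was examined here, though the deposited peak lists were derived from alignments and a control file.

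Atf6 is a leucine zipper transcription factor anchored in the ER membrane. In mammals, misfolded protein in the ER leads to its transport to the Golgi and its cleavage there, and the freed part enters the nucleus and activates genes for ER chaperones and for the removal of faulty proteins. N-linked sugar chains are read by the ER folding machinery, so the enzyme that attaches them works on the same proteins that this response protects. In mammals, the STT3A form of the enzyme sits at the translocon and acts during translation, and the STT3B form acts on sites that were skipped.

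A peak summit is the base at which the authors placed the strongest point of a region, and the signal is the authors' score for that region, on a scale that is not stated. A gene was counted as bound when a summit of the authors' thresholded list of both replicates, here the main list of 5846 peaks, lay within 500 bp of its annotated transcription start site. Each of the 6 genes had 1 annotated start. The irreproducible discovery rate (IDR) is the authors' measure of how poorly a region's rank repeats, and a low value means a good repeat. The inputs compared are not labelled, and an IDR in a replicate's own list does not compare the 2 replicates. The number of reads behind the lists is unknown. In whole embryos, binding in more cells and stronger binding per cell cannot be told apart.

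Binding was uneven within the enzyme. Both catalytic subunit genes, Stt3A and Stt3B, and the small subunit gene Dad1 had a promoter peak. The genes Ost48, OstDelta and Ostgamma had none. The count of 3 of 6 stands beside 21.6% of all protein-coding genes (3019 of 13968), and 6 genes are too few for their share to be set against that of all genes. Signals of the best promoter region ranged from 579 at Stt3A to 14.6 at Ost48. The median of the 6 was 91.1, in the gap between Ostgamma (58.7) and Stt3B (124). Over the 10545 genes with any ranked region at a promoter the median was 45.1. Stt3A, Dad1, Stt3B and Ostgamma lay above 45.1, and OstDelta and Ost48 lay below.

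Sequences at Stt3A and Stt3B, and at the unbound genes Ostgamma and Ost48, show what the results below refer to. They come from the RefSeq copy of the assembly that the peak lists use (dm6) and run from 5′ to 3′ on the strand of the oligosaccharyl transferase gene, which is the minus strand in each case. Capitals mark matches, on either strand, to the words searched, which are listed with their frequencies further on.
Stt3A, 50 bp each side of the summit, chrX:21054308-21054408: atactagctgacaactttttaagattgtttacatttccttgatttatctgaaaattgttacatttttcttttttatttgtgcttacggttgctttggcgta
Stt3B, all bases between its start and that of CG11839, chr3R:25069638-25069926: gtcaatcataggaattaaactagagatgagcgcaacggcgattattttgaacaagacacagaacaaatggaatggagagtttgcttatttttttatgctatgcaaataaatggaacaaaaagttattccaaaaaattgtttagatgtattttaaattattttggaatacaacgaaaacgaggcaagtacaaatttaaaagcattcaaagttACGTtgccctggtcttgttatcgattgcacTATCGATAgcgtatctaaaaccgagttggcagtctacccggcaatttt
Ostgamma, 50 bp each side of the summit of its best ranked region, chr2L:8307919-8308019: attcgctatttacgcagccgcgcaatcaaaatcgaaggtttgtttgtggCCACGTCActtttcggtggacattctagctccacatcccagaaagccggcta
Ost48, all bases between its start and that of Dlip1, chrX:9158516-9158621: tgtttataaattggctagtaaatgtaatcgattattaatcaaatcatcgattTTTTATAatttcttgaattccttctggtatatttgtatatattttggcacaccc

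Of the catalytic subunits, Stt3A (FBgn0031149, chrX:21049885-21053937) carried the strongest promoter peak of the 6 genes. The signal was 579 over chrX:21054183-21054484, which was rank 165 of the main list, with an IDR of 1e-05. In each replicate's own ranked list the best region had a signal of 350 in replicate 1 and 229 in replicate 2, with an IDR of 1e-05 in each. By these signals the gene ranked 142 of all protein-coding genes in replicate 1 and 174 in replicate 2. The peak was therefore high in both, and it was present in each replicate's own thresholded list.

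The position of the Stt3A peak does not single out Stt3A. Its summit lay 421 bp upstream of the Stt3A start, within the 500 bp limit but outside 250 bp. The neighbouring gene bves, whose vertebrate relative encodes a Popeye domain membrane protein, runs the opposite way and has a start 26 bp and another 609 bp from that of Stt3A. The summit fell in an intron of bves, 188 bp upstream of the farther bves start, which was the nearest start of any gene. When each summit was given to its nearest start alone, Stt3A was not counted as bound.

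Stt3A was also the member with a main-list peak inside the transcribed gene, and the other 5 genes had 0. This peak had a signal of 122 over chrX:21053024-21053419, with its summit 715 bp downstream of the start in a coding exon. The replicate 1 list held it with a signal of 52.1, where the summit fell in an intron. In replicate 2 the region had a signal of 64.2 and an IDR of 0.256, and it was not in that replicate's thresholded list.

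Stt3B (FBgn0011336, chr3R:25066712-25069637), the gene of the other catalytic subunit, had a weaker peak close to its start. The signal was 124 over chr3R:25069548-25069943, rank 2220 of the main list, with an IDR of 0.000433 and the summit 109 bp upstream. Replicate 1 gave 76.3 with an IDR of 0.000661, and replicate 2 gave 43.2 with an IDR of 0.682. The summit lay at nearly the same place in both, 110 and 106 bp upstream, but the peak was in the thresholded list of replicate 1 alone. The main list therefore held a peak at Stt3B that replicate 2 by itself did not.

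Side by side, the catalytic genes differed in signal and in distance: 579 at 421 bp for Stt3A and 124 at 109 bp for Stt3B. The order was the same in each replicate's own list. With 1 value per replicate no test of this difference was made.

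Dad1 (FBgn0263852, chr2L:8383612-8384137) encodes a small membrane subunit that was named, from hamster cells that lose it, as a defender against cell death. Its peak had a signal of 354 over chr2L:8384167-8384277, rank 405 of the main list, with an IDR of 1e-05. Replicate 1 gave 178 and replicate 2 gave 176, each with an IDR of 1e-05, so the replicates were closer here than at Stt3A or Stt3B. The summit lay 128 bp upstream of the start, between Dad1 and the divergent gene CG13384. The region was 111 bp wide, where the median of the main list was 396 bp, and 0.963% of promoter summits lay in regions as narrow or narrower. In the replicates' own lists the region was 360 bp wide in replicate 1 and 380 bp in replicate 2, so the narrow width was that of the lists of both replicates together.

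The other subunits had no main-list peak within 500 bp. Ostgamma (FBgn0032015, chr2L:8306696-8308192) encodes a subunit whose mammalian relatives, TUSC3 and MAGT1, are oxidoreductases that work with STT3B. Its best ranked region had a signal of 58.7 over chr2L:8307771-8308166 and an IDR of 0.0331, outside the limit of 0.01 used here. The summit lay 223 bp downstream of the start in an intron of Ostgamma. The best regions in the own ranked lists had signals of 28.8 in replicate 1 and 32.0 in replicate 2, with IDRs of 0.610 and 0.687. Among the members, Stt3B had the lowest signal of the bound genes (124), with an IDR of 0.000433, well inside that limit. Ostgamma had the highest signal of the unbound genes (58.7).

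OstDelta (FBgn0034277, chr2R:17764574-17767070), which encodes the relative of mammalian ribophorin II, had a best region with a signal of 20.6 and an IDR of 0.803, 259 bp downstream of its start. Its signals were 13.7 in replicate 1 and 8.92 in replicate 2. Those regions lay 288 bp upstream and 382 bp downstream. Replicate 1 also had a region with a signal of 13.1, 270 bp downstream, which overlapped that of replicate 2. The nearest main-list summit was 6297 bp downstream.

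Ost48 (FBgn0014868, chrX:9156929-9158515), which encodes a membrane-anchored subunit of the complex, had the lowest value of the 6 genes. Its best region had a signal of 14.6 and an IDR of 0.803, with the summit 475 bp upstream in a coding exon of the divergent gene Dlip1. Replicate 1 had a region with a signal of 9.87, and replicate 2 had no ranked summit within 500 bp. The nearest main-list summit lay 3289 bp downstream of the start, in an intron of His3.3B.

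**Figure D1:**
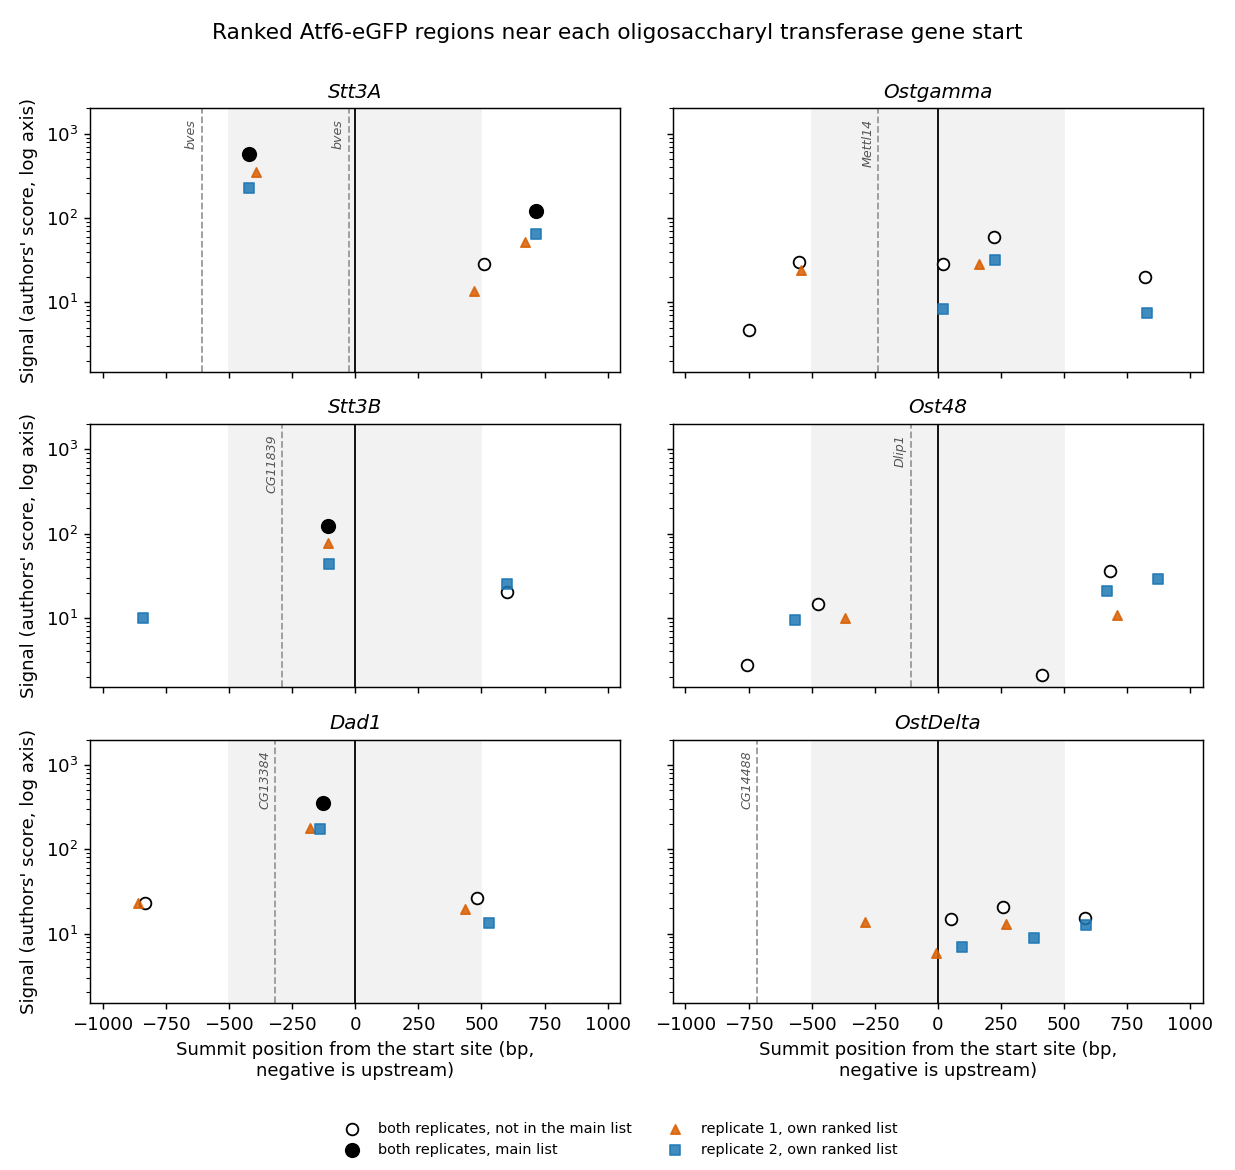
Ranked regions within 1000 bp of the start of each gene, by summit position in bp on the horizontal axis and signal (the authors' score, log axis) on the vertical axis. Filled circles are main-list peaks and open circles other regions of both replicates; triangles and squares are the own ranked lists of replicates 1 and 2; grey shading marks 500 bp each side, and dashed lines mark starts of upstream neighbours. Filled circles within the shading appear at Stt3A (579), Stt3B (124) and Dad1 (354) alone.

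The members spread over the whole range of promoter signals. Ranked among 13968 protein-coding genes by the best region of both replicates, Stt3A stood at percentile 99.0, Dad1 at 97.4, Stt3B at 88.8, Ostgamma at 72.6, OstDelta at 35.2 and Ost48 at 29.8. The same order was found in each replicate's own list. In replicate 1 the percentiles ran from 99.0 for Stt3A to 32.2 for Ost48, and in replicate 2 from 98.8 for Stt3A to 34.0 for OstDelta, with Ost48 last without a region.

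**Figure D2:**
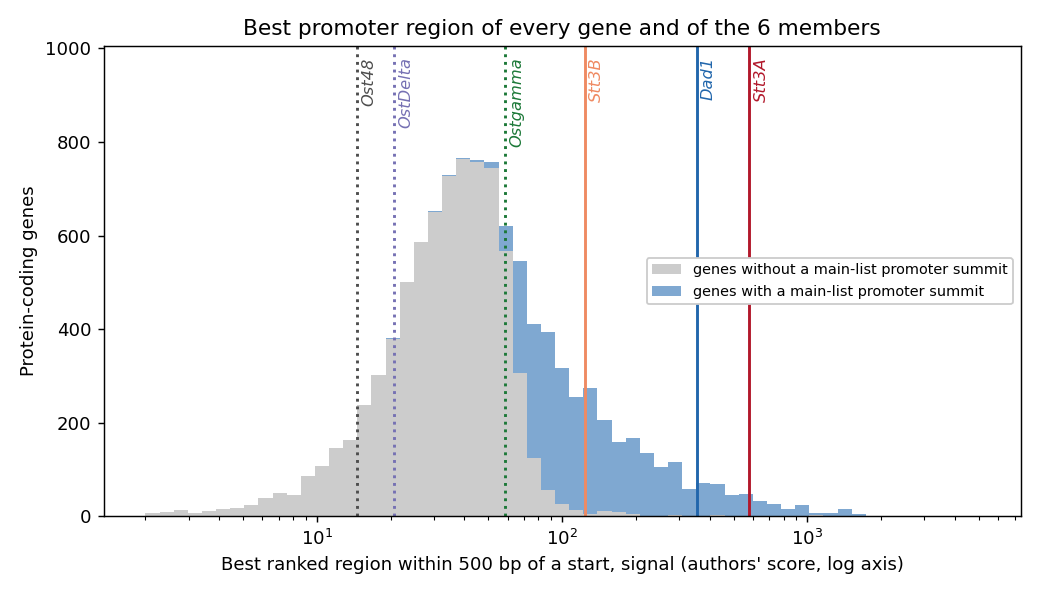
Signal of the best ranked region within 500 bp of a start (authors' score, log axis) against the number of protein-coding genes, for 10545 genes with such a region; blue genes have a main-list summit there and grey genes do not. Solid lines mark the 3 bound members and dotted lines the other 3; Dad1 (354) and Stt3A (579) lie in the upper tail, and Ost48 (14.6) and OstDelta (20.6) lie below the median of 45.1.

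The ratio of replicate 1 to replicate 2 at the bound genes was between the quartiles of other promoter peaks for Stt3A and Dad1 and above the upper quartile for Stt3B. It was 1.52 at Stt3A, 1.77 at Stt3B and 1.01 at Dad1. Over the 2693 main-list promoter regions with a signal for each replicate the median ratio was 1.18, with quartiles of 0.858 and 1.53. The regions of the unbound genes had ratios of 0.900 at Ostgamma, 1.47 at OstDelta and 1.03 at Ost48. At OstDelta the ratio used the replicate 1 region with a signal of 13.1, which overlapped that of replicate 2. At Ost48 it used a replicate 2 region with a signal of 9.56 whose summit lay 566 bp upstream, outside the 500 bp limit.

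**Figure D3:**
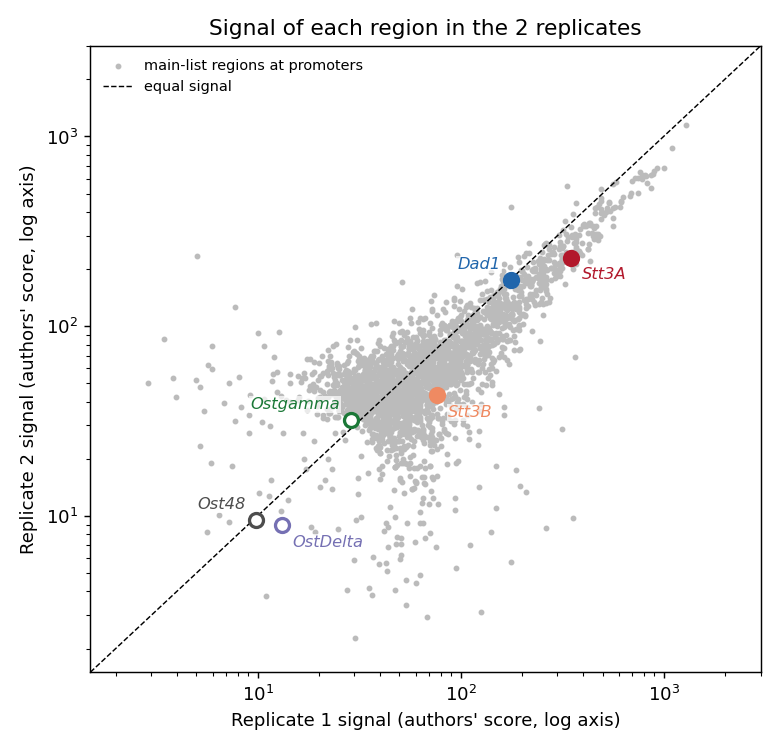
Signal in replicate 1 (horizontal) and replicate 2 (vertical), both the authors' score on log axes, for 2693 main-list promoter regions (grey) and for the best region of each member (filled where bound, open where not). Stt3A (350 and 229) and Dad1 (178 and 176) lie among the strong regions, and Stt3B (76.3 and 43.2) lies below the dashed line of equal signal.

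Promoter peaks with the most similar pair of replicate signals were sought among the same regions, by distance on the log10 scale over the 2 replicates, and this likeness covers 2 values only. Nearest to Stt3A were the peaks at Hrd3, which encodes a partner of an ER ubiquitin ligase (345 and 225), and at Oatp30B, an organic anion transporter gene (362 and 228). For Stt3B they were BEAF-32, the gene of an insulator protein (75.7 and 43.5), and CG7739 (77.4 and 42.8). For Dad1 they were P5CDh1, which encodes a dehydrogenase of proline breakdown (176 and 178), and Dysb, the dysbindin gene (182 and 174).

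All 3 bound promoters were divergent, and each peak was counted for a second gene as well. The start of Stt3B lay 290 bp from that of CG11839, and the summit was 109 bp upstream of the first and 181 bp upstream of the second. The starts of Dad1 and CG13384 lay 318 bp apart, with the summit 128 and 190 bp upstream. At Stt3A the second gene was bves, as described above. Among all 2699 promoter summits of the main list, 799 (29.6%, 95% Wilson interval 27.9 to 31.4) lay within 500 bp of starts of more than 1 gene.

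A divergent neighbour was not peculiar to the bound genes. Ost48 and Dlip1 have starts 107 bp apart, Ostgamma and Mettl14, a gene of the RNA methyltransferase complex, 235 bp apart, and neither pair carried a main-list peak within 500 bp. Only starts of protein-coding genes were considered as neighbours. OstDelta was the member without such a divergent start within 1000 bp. The upstream protein-coding gene there, CG14488, starts 716 bp away on the same strand. An exon of the RNA gene asRNA:CR44416 holds the position 9 bp upstream of the OstDelta start. Among all genes with a divergent start within 1000 bp, 34.7% were bound, and 3 of the 5 members of this kind were. Among the 10269 genes with 1 annotated start, 15.9% were bound, and among those with 1 start and a divergent neighbour 29.4%. The part of gene arrangement in the members' binding was not tested.

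Among the 6 genes, the word TGACGTGG, the core of the site that vertebrate ATF6 binds, was found at Ostgamma alone. It spanned chr2L:8307963-8307970, read on the strand opposite to the gene, and the summit of both replicates together, at 8307969, fell within it. It lies 222 to 229 bp downstream of the start, in an intron, and appears in the printed sequence as CCACGTCA. In the own lists, the replicate 2 summit, 225 bp downstream, fell within the core. The replicate 1 summit, 165 bp downstream in a coding exon, did not. Of 18637 ranked regions with a summit within 500 bp of a start, 28 (0.150%) held the core within 50 bp of the summit, and in 4 of these the summit lay within the core. By signal the Ostgamma region was number 2 of the 28, which had a median of 26.9 and a highest value of 80.9. The region was not in the main list, as given above, and of the 28 regions 2 were. Among all 2699 promoter summits of the main list, these 2 are 0.0741%, beside the 0.150% of ranked regions. This region was singled out after its values were seen.

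The windows under the 3 bound summits did not contain this core. Words were searched on both strands, in a promoter of 300 bases (250 before and 50 after the start) and within 50 bp of the summit. The leucine zipper core ACGT, present in 48.4% of all promoters, was found in the promoters of Stt3B, Ost48, OstDelta and Ostgamma. Within 50 bp of main-list promoter summits its share was 18.8%. It lay under the summit of Stt3B, 78 to 75 bp upstream of the Stt3B start. The summit window of the Ostgamma region also held it, within the TGACGTGG match. ACGT is also part of TGACGTGG and CACGTG. The E-box CACGTG, in 4.20% of promoters, was found 193 to 188 bp upstream of Ost48 alone. CCACG, the part of the ER stress element that overlaps the ATF6 core and is present in 23.0% of promoters, occurred at Stt3A and Ostgamma. The whole ER stress element, its second form and the cyclic AMP element TGACGTCA were in 0 of the 6 promoters and at 0 of the 6 summits. Their shares of all promoters were 0.0215%, 0% and 0.437%. With words this rare, an absence from 6 genes does not set these genes apart.

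Of the core promoter words, TATCGATA, the site of the promoter factor Dref, was found in 9.36% of all promoters. It lay 48 to 41 bp upstream of Stt3B and at 2 places upstream of Ostgamma, from 65 to 58 and from 236 to 229 bp, so 1 bound and 1 unbound member held it. TATAAAA (24.2% of promoters) was found in the promoters of 4 of the 6 genes, both bound and unbound, with Ost48, OstDelta and Ostgamma among them. The M1BP word GGTCACAC (7.69%) and GGTATTT (9.87%) were in 0 of the 6. A match describes the reference sequence and is not evidence of a bound site.

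The summits at Stt3A and Stt3B lay in AT-rich sequence. Of the 101 bases around the summit, 28.7% were G or C at each of them, against a median of 37.6% over all promoter summits of the main list. This value was at percentile 22.7 of these summits. The regions of the unbound genes held more: 49.5% at Ostgamma and at OstDelta and 58.4% at Ost48. The promoters of 300 bases did not follow this order. They held 47.3% at Stt3A and 34.0% at Stt3B, beside 29.7% at Ostgamma, 31.7% at OstDelta and 34.3% at Ost48. The median over all promoters was 38.0%. The summits at Stt3B and Dad1 lay between genes, and those at the other 4 genes in an intron or a coding exon. The part of base composition in these values was not tested.

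The other steps of N-glycosylation also held both bound and unbound genes. Of 33 further genes of the pathway, 11 had a promoter peak (33.3%, interval 19.8 to 50.4, which holds the 21.6% of all genes). The median signal of the bound ones was 110, against 124 over all bound genes. The own list of replicate 1 held 6 of the 33, beside 16.7% of all genes. That of replicate 2 held 6 of the 33, beside 14.2%. Of the oligosaccharyl transferase genes, replicate 1 held 3 and replicate 2 held 2.

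Of genes that build the sugar chain on dolichol, 3 of 13 were bound (23.1%, interval 8.18 to 50.3, holding the share of all genes). These were Alg3, a mannosyltransferase of the ER lumen (signal 452, 70 bp upstream), Alg1, which adds the first mannose (179, 59 bp upstream), and Alg2, a mannosyltransferase that acts after it (82.9, 400 bp upstream). Alg3 and Alg1 were in each replicate's own list and Alg2 in neither. Of 5 genes for dolichol and for its mannose phosphate, 2 were bound (40.0%, interval 11.8 to 76.9, which holds the share of all genes). Among them was Dpm2, a subunit gene of the dolichol phosphate mannose synthase (71.7), which was in neither replicate's list. The donor side of the reaction held peaks as strong as that of Dad1 at Alg3 alone.

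Genes that act on the sugar chain after its transfer were bound in part. In the glucose trimming and refolding cycle 2 of 6 were bound (33.3%, interval 9.68 to 70.0). In mannose trimming and Golgi maturation 4 of 9 were bound (44.4%, interval 18.9 to 73.3). Both intervals hold the share of all genes. GCS2beta, the gene of the beta subunit of glucosidase 2, had a signal of 346 with its summit 76 bp upstream, and the calnexin gene Cnx99A had 171 with its summit 83 bp upstream. Both were in each replicate's own list. In the Golgi group, the N-acetylglucosaminyltransferase genes Mgat4a (155) and Mgat2 (110) were in the list of replicate 2 alone, the fucosyltransferase gene FucT6 (100.3) in that of replicate 1 alone, and the mannosidase gene alpha-Man-IIb (75.8) in neither. Of the peaks named for the other pathway genes, 5 also lay within 500 bp of a start of another gene: RpS28a for Mgat2, CG5131 for GCS2beta, tinc for Alg1, CG11537 for Alg2, and CG12016 and PIG-C for Dpm2.

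The calreticulin gene Calr, singled out after its values were seen, had a region with a signal of 96.2 and an IDR of 0.00149, 17 bp upstream of its start. That region met the IDR limit of 0.01 but was absent from the main list. Of all ranked regions 6011 met this limit, beside 5846 peaks in the main list, so other such regions were absent too.

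**Figure D4:**
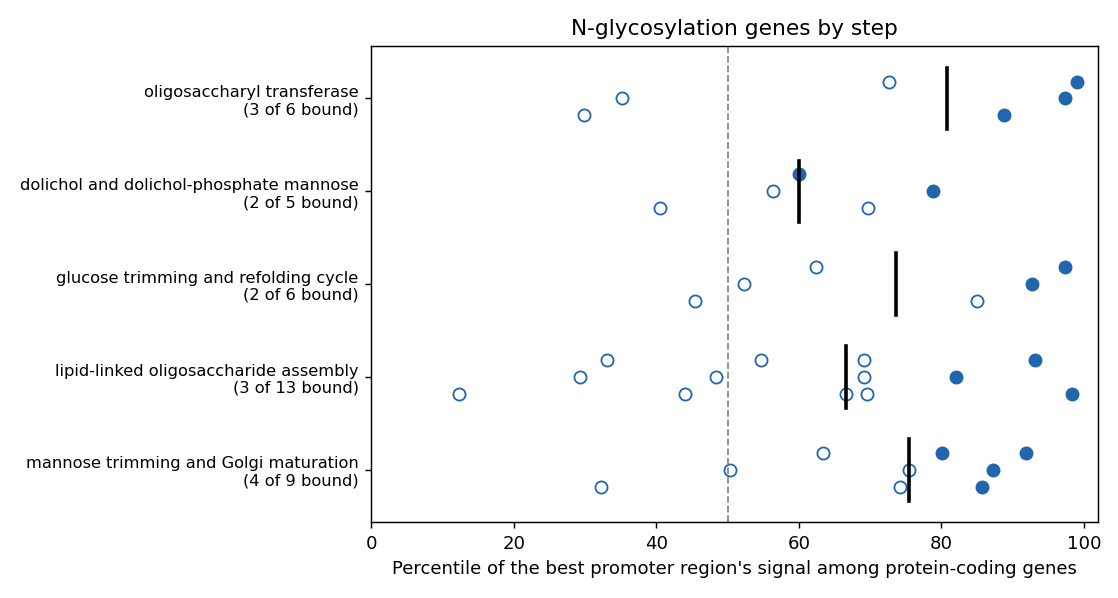
Percentile of each gene's best promoter region among all protein-coding genes (horizontal axis), by step of N-glycosylation; filled points have a main-list promoter peak and open points do not. Black bars are group medians and the dashed line is the median of all genes; the oligosaccharyl transferase genes had a median percentile of 80.7 and ranged from 29.8 to 99.0.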

How the data were processed

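The deposited peak lists on dm6 were used: a main thresholded list of both replicates, the ranked list it belongs to, a conservative pair, and a pair for each replicate. Per the text files deposited beside them, they were derived from alignments and a control file; which aligner and which peak caller were used is not given in the sources used here. The signal is a deposited score of unstated scale, and the IDR was computed from its deposited −log10 value. Signals were compared within a list. Replicate signals come from each replicate's own ranked list. The ratios use the 2 signal columns of the ranked list of the conservative pair. Its regions at all 6 genes matched replicates 1 and 2 by position and value. The IDRs in that list were 1e-05 at Stt3A and Dad1, 0.00131 at Stt3B and 0.0201 at Ostgamma. They were 0.486 at OstDelta and 0.791 at Ost48. The replicates are labelled as biological.

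Starts came from Ensembl release 115 (BDGP6 version 54) on 7 chromosome arms, and sequence and product names from RefSeq; the lists' last regions ended within the RefSeq arm lengths. Counts of genes took a summit within 500 bp of any start, which was checked on simulated summits. Members and lists were chosen with earlier results of these data known. No test was made across genes. The pathway list held 37 names, of which 4 were not found in the annotation and were dropped; of its bound genes the 10 of highest signal are named. A search of product names for further subunits found 0 outside the members and 5 of the 6 members, so subunits under other names may be missing. Alternatives changed the list, the threshold, the distance and the start sites. Python 3.11.15, pandas 2.3.3 and SciPy 1.17.1 were used. Wilson intervals cover counting error only. The sequence at 1 bound summit is not reported here.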

Additional observations from a re-analysis of the deposited data

How the results depend on the processing

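The count of bound oligosaccharyl transferase genes was 2 or 3 in all 10 alternatives. It was 2 without replicate 1, where Stt3B was lost, and at 250 bp or with the nearest start only, where Stt3A was lost; the nearest start and the gene subsets were added after seeing the data. The share of all genes was 21.6% and became 19.3% in the conservative list, 13.6% for the main-list peaks above the median signal, 17.7% at 250 bp, 25.4% at 1000 bp, 23.3% for any overlap, 19.1% for the 5′ end of the gene, 16.8% for the nearest start, 34.7% with a divergent neighbour, 15.9% with 1 start and 29.4% with both. Without replicate 1 or 2 it ranged from 14.2 to 16.7%. The 11 other N-glycosylation genes became 6 for the peaks above the median signal and 6 without replicate 1 or without replicate 2, and stayed between 8 and 12 in the other alternatives. Fewer peaks were in those lists. No paired analysis was possible because there was 1 group. The number of reads is unknown, so an unbound gene is not shown to lack binding.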
